A study of Mus musculus with 20 samples.

Results

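Kruppel-like factors (Klf) are a family of DNA-binding proteins, and 10 of their genes, Klf2, Klf3, Klf4, Klf5, Klf6, Klf7, Klf9, Klf10, Klf13 and Klf15, were followed here across clonal mouse fibroblast lines that can or cannot become fat cells. The genes were taken by symbol: every probe set that the platform annotation pairs with 1 of these symbols was used, which gave 34 of the 45037 probe sets that are not controls. Each gene was represented by its brightest probe set, so the 10 genes stood among 18193 genes tested.

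The lines are clones of Swiss 3T3, an immortalized strain of mouse embryo fibroblasts. Swiss 19, Swiss 9, Swiss 8 and Swiss 2 are preadipose, which means able to become adipocytes, and Swiss 3, Swiss 5 and Swiss 22 are non-adipogenic. All 7 lines were untreated and were harvested while still dividing, in DMEM with 10% bovine serum, a medium that does not start differentiation. Each line was measured on 3 arrays, except Swiss 19 with 2, which made 20 arrays of 3' expression probes. Every line is a single clone, so a class is 4 or 3 clones, and whether a line's arrays were made from separate cultures is not said in the labels. The clone was therefore the replicate of the class comparison. Where arrays of a line serve as the error, the p-value covers their own scatter and no more, and that scatter may be technical.

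All Klf proteins carry zinc fingers at their C-terminal end that bind GC-rich and CACCC-type DNA, and they differ in the N-terminal part that recruits coactivators or corepressors. In fat cell differentiation several members act in turn. Klf4 is an early inducer of Cebpb, Klf5 acts with C/EBP proteins on Pparg, the master regulator of adipocytes, Klf6 represses the preadipocyte gene Dlk1, Klf9 acts on the Pparg2 promoter and Klf15 turns on the glucose transporter gene Slc2a4. Klf2 and Klf3 restrain the process, Klf2 at the Pparg promoter and Klf3 with the corepressor CtBP at Cebpa, and Klf7 is also known as an inhibitor. Klf10, an early TGF-beta-inducible gene, and Klf13, a close relative of Klf9, were given no role here.

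Levels are given as scaled intensity, which is the deposited intensity after each array was brought to a mean of 500 that leaves out the top and bottom 2% of its values. It compares lines for 1 probe set and does not compare genes. A probe set was counted as above background in a line when its mean was above the level under which 95% of 27 bacterial controls without spiked RNA lay. Of the 34 probe sets, 25 were above background in all 7 lines, 9 in some lines and 0 in no line. All the genes but Klf15 had their representative probe set above background in all 7 lines, against 56.3% of all genes.

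The arrays differed in brightness in a way that partly followed the classes. When arrays were divided where the mean of 9 hybridization spikes jumped most, by 1.62-fold, all arrays of Swiss 2, Swiss 8 and Swiss 9 were dim, those of Swiss 19, Swiss 5 and Swiss 22 were bright, and Swiss 3 had 2 dim arrays and 1 bright one. The mean deposited intensity ran from 26.8 to 160 in preadipose and from 41.4 to 150 in non-adipogenic arrays, and the 3'/5' ratio of Gapdh from 0.793 to 0.880 and from 0.776 to 0.811. Of the fibroblast markers, 10 of 10 were above background in all 7 lines, with summed levels of 339685 to 419178 in preadipose and 294486 to 316551 in non-adipogenic lines. Of 5 measured adipocyte markers, 2, Fabp4 and Retn, were above background in every line and 2, Cidec and Lep, in none, and their summed levels overlapped between the classes (665 to 2117 and 1081 to 2032). Of the markers of other cell types, Pecam1 and Tie1 (endothelium), Cdh1 (epithelium), Ptprc (leukocytes) and Myog (muscle) were above background in no line. Above it in all 7 lines were 0 of 6 endothelial markers and 2 of 6 epithelial ones, Epcam and Krt8. The same held for 3 of 5 leukocyte markers (Cd68, Lyz2 and Csf1r) and 3 of 5 muscle markers (Des, Acta1 and Ckm). Summed levels were 459 to 615 in preadipose and 542 to 806 in non-adipogenic lines for endothelium, 840 to 1273 and 830 to 1337 for epithelium, 1132 to 1349 and 994 to 1739 for leukocytes, and 970 to 1056 and 819 to 908 for muscle.

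Because Klf proteins bind CACCC and GC boxes and several are known to bind the promoters of other family genes, the 250 bases before the annotated start of each gene were read for such letters. RefSeq promoters of build GRCm38.p6 were held for 8 of the genes, and not for Klf5 and Klf10. CACCC, read on both strands as CACCC or GGGTG, was present in 6 of the 8 and in 52.0% of 32851 promoters of the same length. GGGCGG, the core of a GC box, read also as CCGCCC, was present in 7 of the 8 and in 32.7% of all promoters. Klf3 held 5 CACCC matches, a number reached by 0.667% of all promoters, and 6 GGGCGG matches, and 78.4% of its bases were G or C. Its sequence is printed because Klf3 is the member whose array values, in its representative probe set, did not overlap between the classes. The window is chr5:64803271-64803520 on the plus strand, and the capitals mark CACCC or GGGTG.
Klf3: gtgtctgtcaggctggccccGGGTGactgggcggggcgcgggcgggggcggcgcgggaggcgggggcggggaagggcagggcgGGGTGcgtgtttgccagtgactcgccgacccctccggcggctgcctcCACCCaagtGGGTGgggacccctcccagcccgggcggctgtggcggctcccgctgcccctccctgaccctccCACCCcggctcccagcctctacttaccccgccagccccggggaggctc
CTA and TAG with any 4 bases between them, the core of a MEF2 site and the same on both strands, was present in Klf2 alone among the 8 and in 3.20% of all promoters. Klf2 is known to be switched on through MEF2 factors, so its window, chr8:72318812-72319061 on the plus strand, is shown for comparison with the match in capitals.
Klf2: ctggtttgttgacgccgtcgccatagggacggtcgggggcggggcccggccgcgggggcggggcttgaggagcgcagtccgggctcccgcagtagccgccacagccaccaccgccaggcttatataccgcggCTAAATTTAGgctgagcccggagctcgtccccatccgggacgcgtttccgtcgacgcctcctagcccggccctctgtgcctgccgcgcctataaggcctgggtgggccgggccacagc
The match lies 109 bases before the start. These are letters found in a fixed window, and no binding was measured.

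**Figure D1:**
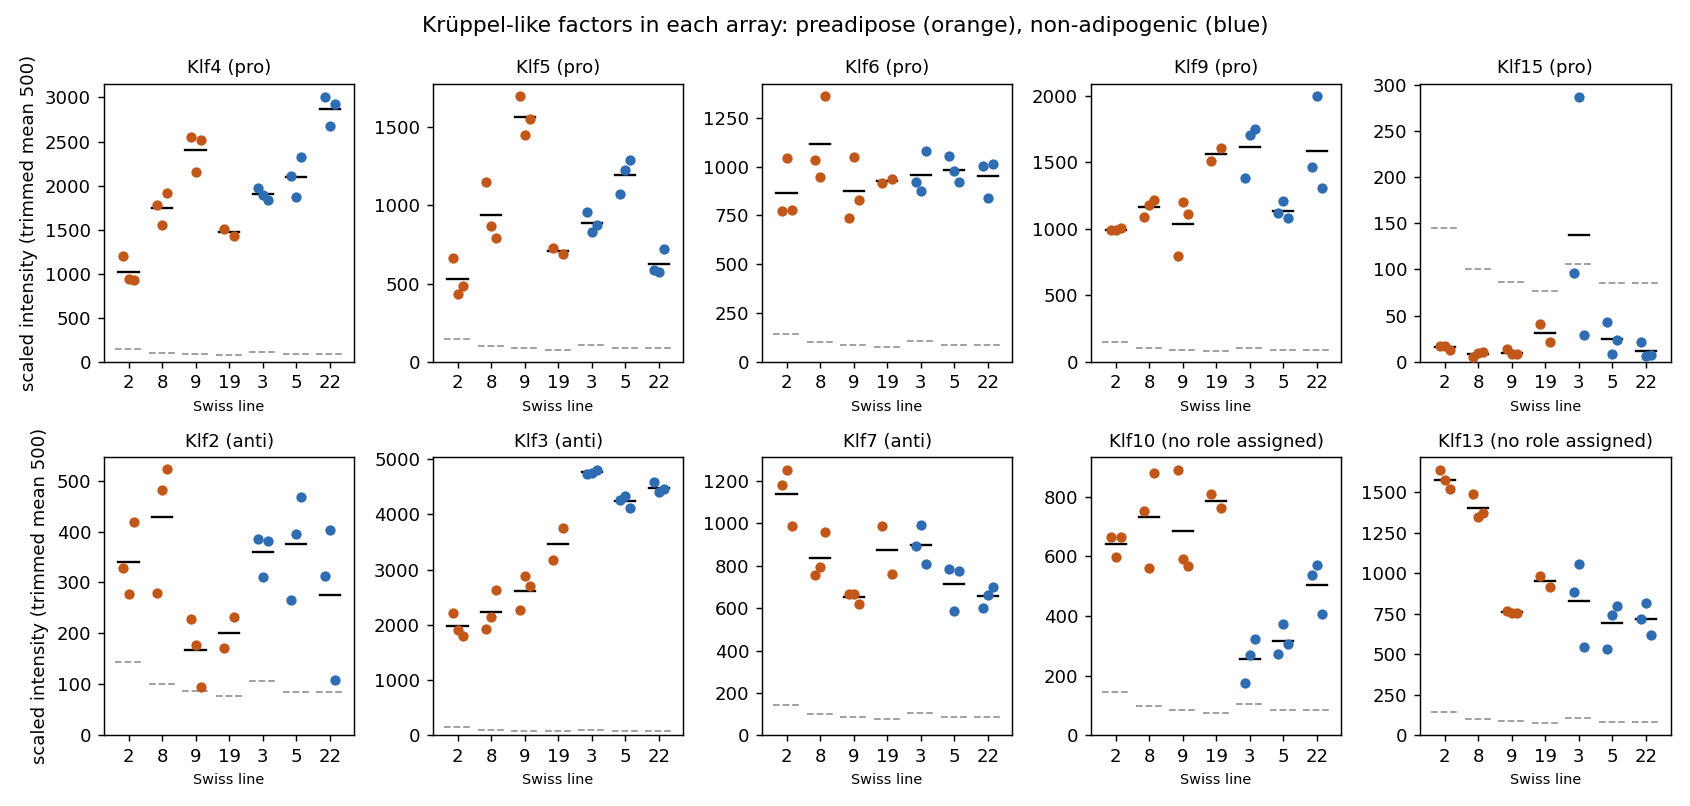
Scaled intensity of the representative probe set of each of the 10 genes in 7 lines, with 1 point per array, a black bar at the line mean, a dashed line at background, preadipose lines in orange and non-adipogenic lines in blue. Klf3 is the panel in which all orange points (1807 to 3745) lie below all blue points (4110 to 4794), and the Klf15 points lie at or below background in all but 1 array.

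Of the pro-adipogenic members, Klf4, Klf5, Klf6 and Klf9 were above background in every line of both classes and Klf15 in no preadipose line. None of the 5 passed the limma test of preadipose against non-adipogenic lines. Klf4 read 1203, 937 and 926 in Swiss 2, 1779, 1555 and 1911 in Swiss 8, 2551, 2154 and 2512 in Swiss 9 and 1508 and 1429 in Swiss 19. In the non-adipogenic lines it read 1973, 1897 and 1833 in Swiss 3, 2107, 1867 and 2324 in Swiss 5 and 3011, 2678 and 2922 in Swiss 22. Swiss 2 was low and Swiss 22 high, and Swiss 9, a preadipose line, lay above Swiss 3 and Swiss 5, so the classes overlapped. In bulk cultures such as these, fewer cells with a transcript and less of it per cell cannot be told apart. The preadipose mean was 1661 ± 580 (SD, n = 4 lines) and the non-adipogenic mean 2290 ± 512 (SD, n = 3 lines), a log2 difference, preadipose minus non-adipogenic, of -0.37 (SE 0.20, 95% interval -0.83 to 0.083; limma adjusted p = 0.431). Log2 differences throughout are of quantile-normalized log2(intensity + 32). The added 32 is not small beside array means of 26.8 to 160 in deposited intensity. The log2 differences therefore understate changes, most for dim genes, and do not convert to the folds of scaled intensity. The other Klf4 probe set also had a negative difference, -0.14, with its interval from -0.44 to 0.16.

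Klf5 differed from clone to clone within each class. In the preadipose lines it read 666, 435 and 484 in Swiss 2, 1150, 868 and 790 in Swiss 8, 1698, 1448 and 1553 in Swiss 9 and 724 and 687 in Swiss 19. In the non-adipogenic lines it read 957, 832 and 872 in Swiss 3, 1072, 1228 and 1288 in Swiss 5 and 585, 576 and 721 in Swiss 22. The highest and the lowest line were thus both preadipose, with the non-adipogenic lines between them. The class means of 1451021_a_at, 934 ± 453 (SD, n = 4) and 903 ± 285 (SD, n = 3), gave a log2 difference of -0.0083 (SE 0.24, 95% interval -0.56 to 0.54; limma adjusted p = 0.994). The clones differed so much that this interval, the widest of the 10 genes, leaves the class difference of Klf5 poorly fixed.

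Klf6, the repressor of Dlk1, had the smallest class difference after Klf5 and a small range between clones. Its line means ran from 865 in Swiss 2 to 1115 in Swiss 8 in the preadipose lines and from 952 to 983 in the non-adipogenic ones. The log2 difference between classes was -0.017 (SE 0.067, 95% interval -0.17 to 0.14; limma adjusted p = 0.958), the narrowest interval among the genes above background in all lines. Of its 5 probe sets, all above background in every line, 2 had negative and 3 positive differences, each with an interval that included 0.

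Klf9 was highest in Swiss 3, Swiss 22 and Swiss 19, with line means of 1612, 1587 and 1559. Swiss 8, Swiss 5, Swiss 9 and Swiss 2 followed with 1160, 1134, 1035 and 993. The upper group joined a preadipose clone to a pair of non-adipogenic ones, and the log2 difference between the classes was -0.19 (SE 0.13, 95% interval -0.49 to 0.11; limma adjusted p = 0.587). Klf15, a glucocorticoid-induced factor of differentiated fat, was above background in 1 of 20 arrays, the Swiss 3 array at 287. Its other Swiss 3 arrays read 95.9 and 29.3, the preadipose line means ran from 8.42 to 31.0, and no fold is given for it.

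Among the anti-adipogenic members, Klf3 was lower in all 4 preadipose lines than in any non-adipogenic line. It read 2213, 1905 and 1807 in Swiss 2, 1932, 2141 and 2640 in Swiss 8, 2268, 2881 and 2709 in Swiss 9 and 3178 and 3745 in Swiss 19. In the non-adipogenic lines it read 4731, 4756 and 4794 in Swiss 3, 4267, 4336 and 4110 in Swiss 5 and 4578, 4396 and 4466 in Swiss 22. The non-adipogenic clones lay close together and the preadipose clones were spread below them. In this probe set, 1454666_at, the classes did not overlap even by array. The class means of 2574 ± 649 (SD, n = 4) and 4492 ± 262 (SD, n = 3) are 1.75-fold apart, with a log2 difference of -0.71 (SE 0.15, 95% interval -1.05 to -0.36). The limma p was 0.00161 and the adjusted p over all 18193 genes 0.0671, above the threshold of 0.05.

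Klf3 was read by 7 probe sets, of which 5 were above background in all lines. All 5 had lower means in the preadipose class, and in 3 of them the line means did not overlap. By array the classes were apart in 1454666_at alone. Preadipose arrays reached 781 in 1429360_at and 709 in 1421604_a_at, where non-adipogenic arrays began at 774 and 613. Probe set 1429360_at gave 636 ± 86.7 against 937 ± 116 (SD, n = 4 and 3), a log2 difference of -0.33, and 1421604_a_at gave 567 ± 71.3 against 904 ± 150, a difference of -0.37. Their limma adjusted p-values over all probe sets were 0.114 and 0.108, beside 0.0896 for the brightest, 1454666_at. The 5 probe sets read 1 gene on the same arrays, so they are not separate replicates. The sizes differed between them, down to -0.17 for 1431630_a_at, and the mean of all 7 probe sets gave -0.25 (limma adjusted p = 0.222).

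Klf2, which restrains Pparg and is also known from quiescent endothelium, overlapped between the classes. Its line means were 341 in Swiss 2, 428 in Swiss 8, 167 in Swiss 9, 202 in Swiss 19 and 359, 376 and 275 in Swiss 3, Swiss 5 and Swiss 22. Arrays of 1 line differed widely, from 108 to 404 in Swiss 22, and 19 of 20 arrays were above their background. The log2 difference was -0.10 (SE 0.12, 95% interval -0.39 to 0.18; limma adjusted p = 0.787). Klf7 ran from 652 in Swiss 9 to 1141 in Swiss 2 among the preadipose lines, and from 656 in Swiss 22 to 899 in Swiss 3 among the non-adipogenic ones. Its log2 difference of 0.13 (SE 0.13, 95% interval -0.16 to 0.43; limma adjusted p = 0.726) was the only positive one among the anti-adipogenic members, and its 4 probe sets divided into 2 positive and 2 negative differences. The sign of Klf7 is not settled: it was negative with arrays centred on their medians (-0.17), without normalization (-0.30), as the mean of its probe sets (-0.015) and in the dim arrays (-0.073).

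Klf10 was higher in all 4 preadipose lines than in any non-adipogenic line when line means were compared. It read 666, 596 and 664 in Swiss 2, 752, 561 and 881 in Swiss 8, 891, 591 and 569 in Swiss 9 and 811 and 764 in Swiss 19. In the non-adipogenic lines it read 177, 270 and 322 in Swiss 3, 274, 372 and 308 in Swiss 5 and 536, 573 and 405 in Swiss 22. Single arrays of Swiss 22 reached the lower preadipose arrays, so the classes overlapped by array and not by line. The class means were 711 ± 62.5 (SD, n = 4) and 360 ± 129 (SD, n = 3), 1.98-fold apart, with a log2 difference of 0.52 (SE 0.11, 95% interval 0.27 to 0.77). The limma p was 0.00141 and the adjusted p 0.0634, again above the threshold, and 1 probe set reads this gene.

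Klf13 was high in 2 preadipose clones and not in the others. Swiss 2 read 1638, 1575 and 1520 and Swiss 8 read 1493, 1348 and 1374, whereas Swiss 9 read 769, 754 and 755 and Swiss 19 read 984 and 918. The non-adipogenic arrays lay between 533 and 1057, so Swiss 9 and Swiss 19 were within their range. The class means of 1173 ± 382 (SD, n = 4) and 747 ± 71.5 (SD, n = 3) are 1.57-fold apart, and the log2 difference was 0.41 (SE 0.17, 95% interval 0.0073 to 0.81; limma adjusted p = 0.311). The other Klf13 probe sets were above background in 5 and 2 lines.

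In the class comparison as a whole, 0 of the 10 genes passed limma at an adjusted p under 0.05, where 1.53% of all genes did (0.583% higher and 0.951% lower in preadipose lines). At an unadjusted limma p under 0.05 there were 3, Klf3, Klf10 and Klf13, against 15.6% of all genes. The classes were separate by line mean in 2 of the 10, Klf3 and Klf10, against 13.9% of all genes and 18.9% of the 10243 genes above background in all 7 lines, so the share of members was near the background. The median log2 difference of the members was -0.06, beside 0.0033 over all genes, and their median size was 0.16, beside 0.076. The median size over all genes includes genes above background in no line and is not a like reference for these members. The 4 pro-adipogenic members above background in all lines had differences from -0.37 (Klf4) to -0.0083 (Klf5), and the negative signs of Klf5, Klf6 and Klf9 turned positive in some settings. By probe set, 0 of 34 were called (0.819% of all probe sets), 5 had an unadjusted limma p under 0.05 (12.6% of all) and 4 had line means without overlap (11.6% of all).

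**Figure D2:**
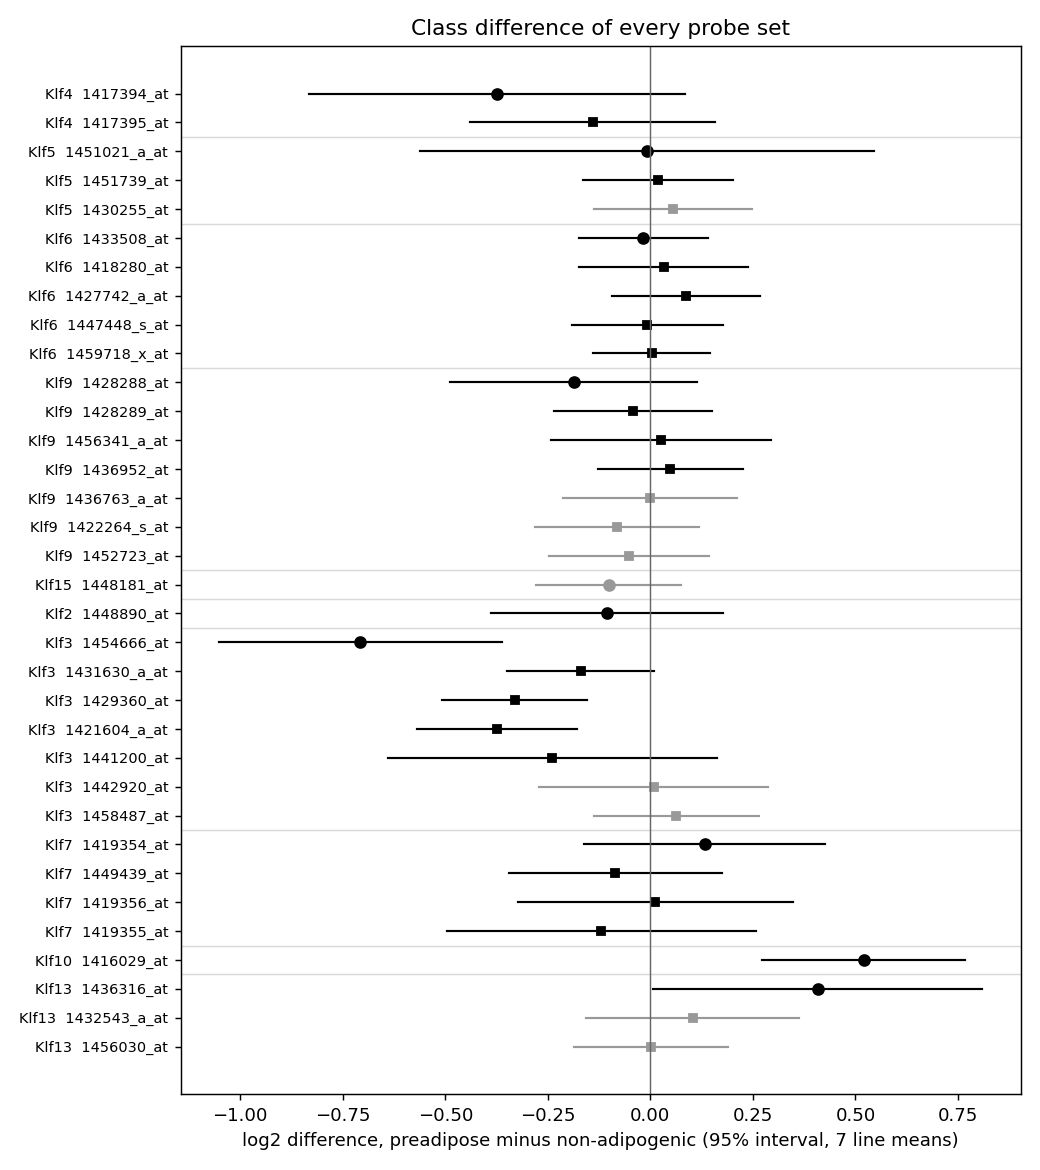
Log2 difference, preadipose minus non-adipogenic, of the 34 probe sets grouped by gene, with 95% intervals from limma on 7 line means. Circles are the representative probe sets and squares the others, black those above background in all 7 lines and grey the rest. The 5 black Klf3 points all lie below 0, the brightest at -0.71, while the Klf6, Klf7 and Klf9 points fall on both sides of 0.

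Clones of the same class were compared next, with the spread between arrays as the error, which is not the error of the class comparison. Among the 4 preadipose lines, the moderated F test of limma on 20 arrays called 6 of the 10 genes, where 23.2% of all genes and 36.8% of those above background in all 7 lines were called. Klf5 had the widest range, 0.98 on the log2 scale from Swiss 2 to Swiss 9 (limma adjusted p = 7.13e-06), then Klf4 with 0.85 between the same lines (limma adjusted p = 1.06e-05). Klf13 spanned 0.73 from Swiss 9 to Swiss 2 (limma adjusted p = 0.00033), Klf3 0.64 from Swiss 2 to Swiss 19 (limma adjusted p = 0.000844) and Klf7 0.52 from Swiss 9 to Swiss 2 (limma adjusted p = 0.00210). Klf9, with a range of 0.41, was at the edge (limma adjusted p = 0.0443): leaving out either Swiss 19 array gave 0.164 and 0.257, other single arrays gave up to 0.0621, and a pseudocount of 8 gave 0.0772. Klf10 was level across these clones, with a range of 0.12 (limma adjusted p = 0.860).

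Among the 3 non-adipogenic lines the same limma test called 4 of the 10 genes, where 16.4% of all genes and 27% of those above background in all 7 lines were called. Klf5 spanned 0.58 from Swiss 22 to Swiss 5 (limma adjusted p = 0.00136), and Klf4 0.41 from Swiss 3 to Swiss 22 (limma adjusted p = 0.00435). Klf10 spanned 0.48 from Swiss 3 to Swiss 22 (limma adjusted p = 0.0156) and Klf9 0.38 from Swiss 5 to Swiss 3 (limma adjusted p = 0.0289). The Klf9 call was lost without single arrays of Swiss 5 or Swiss 3 (adjusted p up to 0.116) and with a pseudocount of 8 (0.0610), and the Klf10 call without 1 array of Swiss 3 (0.0650) or either of 2 arrays of Swiss 22 (0.0604 and 0.0765). Klf4 and Klf5, both pro-adipogenic, were thus called among the clones of both classes, and every leave-out of 1 array kept these 4 calls. Whether the spread differs between the classes was not tested.

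The lines could be ordered for each gene by normalized log2 level, and a gap is given where the arrays of neighbours do not overlap. Scaled intensity can order close lines otherwise, as with Swiss 9 and Swiss 2 for Klf9 (1035 and 993). With 2 or 3 arrays a line, the gaps are a description and not a test. The limma F test did not call Klf3 among the non-adipogenic lines (adjusted p = 0.262), although a gap lay below Swiss 3. For Klf3 the order from low to high was Swiss 2, Swiss 8, Swiss 9, Swiss 19, Swiss 5, Swiss 22 and Swiss 3, with gaps after Swiss 9, Swiss 19 and Swiss 22. For Klf4 it was Swiss 2, Swiss 19, Swiss 8, Swiss 3, Swiss 5, Swiss 9 and Swiss 22, with gaps after Swiss 2, Swiss 19 and Swiss 9. For Klf5 it was Swiss 2, Swiss 22, Swiss 19, Swiss 3, Swiss 8, Swiss 5 and Swiss 9, with gaps after Swiss 19 and Swiss 5. By these representative probe sets Klf4 and Klf5 shared the lowest line, Swiss 2, and Swiss 9 was highest for Klf5 and next to highest for Klf4. Other probe sets above background in all lines gave other orders. Klf4 probe set 1417395_at was lowest in Swiss 19 (scaled intensity 602) and highest in Swiss 9 (1150). Klf5 probe set 1451739_at was highest in Swiss 3 (356), with Swiss 2 (289) above Swiss 9 (225). For Klf10 the order was Swiss 3, Swiss 5, Swiss 22, Swiss 2, Swiss 9, Swiss 8 and Swiss 19, with gaps after Swiss 5 and Swiss 22. For Klf13 it was Swiss 5, Swiss 22, Swiss 9, Swiss 3, Swiss 19, Swiss 8 and Swiss 2, with gaps after Swiss 19 and Swiss 8. In Klf7 the gap was below Swiss 2, the highest line, in Klf9 gaps followed Swiss 2 and Swiss 8 of the order Swiss 9, Swiss 2, Swiss 5, Swiss 8, Swiss 22, Swiss 19 and Swiss 3, and in Klf2, Klf6 and Klf15 no neighbours were apart.

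**Figure D3:**
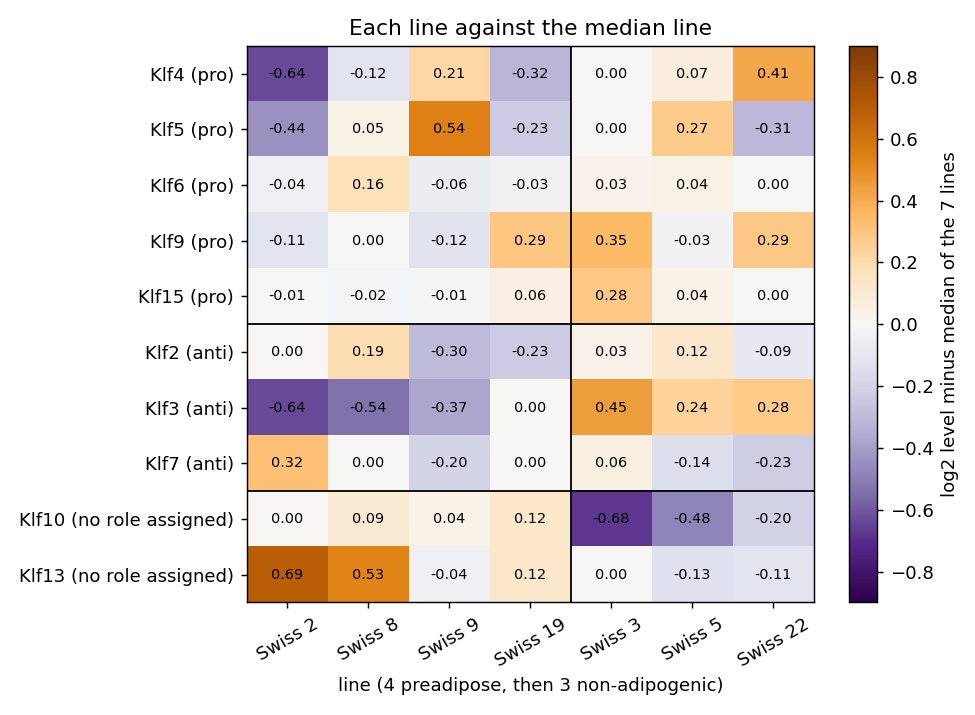
Log2 level of each gene's representative probe set in each line minus its median over the 7 lines. Preadipose lines are on the left and non-adipogenic lines on the right, with the colour scale in log2 units. The Klf3 row is negative in the preadipose columns other than Swiss 19 and the Klf10 row negative in the non-adipogenic columns, while Klf4 and Klf5 are lowest in Swiss 2 (-0.64 and -0.44).

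Line by line, Klf4, Klf5, Klf6 and Klf9 are the pro-adipogenic members above background. By their representative probe sets, no clone of either class had all of them above the median line. Swiss 2 had Klf4 at -0.64 and Klf5 at -0.44 relative to the median line, with Klf3 also low (-0.64) and Klf13 (0.69) and Klf7 (0.32) high. Swiss 9 had Klf5 at 0.54 and Klf4 at 0.21, with all 3 anti-adipogenic members below the median (Klf2 -0.30, Klf3 -0.37 and Klf7 -0.20). Swiss 8 had low Klf3 (-0.54) and high Klf13 (0.53), both less far from the median than in Swiss 2, and was the highest line for Klf2 (0.19) and Klf6 (0.16). Swiss 19 had low Klf4 (-0.32) and Klf5 (-0.23) and high Klf9 (0.29). Of the non-adipogenic clones, Swiss 3 had high Klf3 (0.45) and Klf9 (0.35) and low Klf10 (-0.68). Swiss 5 had high Klf5 (0.27) and Klf3 (0.24) and low Klf10 (-0.48). Swiss 22 had high Klf4 (0.41), Klf9 (0.29) and Klf3 (0.28), with Klf5 (-0.31) and Klf7 (-0.23) low.

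Sums of squares over the 20 arrays divide the variation of each gene, without a test. Class took 77.8% of the variation of Klf3 and 67.4% of that of Klf10, against a median of 6.74% over all genes. Clone within class took 91.1% for Klf5, 69.8% for Klf7 and 64.1% for Klf4, against a median of 32.5%. Both medians include genes above background in no line and are not a like reference for these members. Arrays of the same line took 67.9% for Klf6, whose clones barely differed, and 4.53% for Klf3.

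Klf3 and Klf10 lay close to the threshold, and which lines and arrays entered decided whether they passed. Without Swiss 19, the preadipose line with the highest Klf3, the Klf3 difference was -0.84 (limma adjusted p = 0.0126, 2.58% of genes called), and without any other single line its adjusted p lay between 0.128 and 0.191. Without Swiss 22, the non-adipogenic line with the highest Klf10, the Klf10 difference was 0.65 (limma adjusted p = 0.0443, 0.302% called), and without any other its adjusted p lay between 0.0836 and 0.159. Single arrays did the same: without Swiss 19 replicate 2 the adjusted p of Klf3 was 0.0448, and without Swiss 22 replicate 2 that of Klf10 was 0.0486. With genes above background in at least 2 lines tested alone (14042 genes, 3.17% called), the adjusted p was 0.0371 for Klf3 and 0.0421 for Klf10.

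Brightness moved with the size of the Klf3 difference. It was -0.96 in the dim arrays (limma adjusted p = 0.0464, 2.08% of genes called, Swiss 3 the only non-adipogenic line) and -0.32 in the bright arrays (adjusted p = 0.587, 0% called, Swiss 19 the only preadipose line). In Swiss 3, the line with both kinds of array, the dim and bright arrays lay within 4731 to 4794. With brightness as a block the differences were -0.64 for Klf3 (limma adjusted p = 0.0768) and 0.66 for Klf10 (adjusted p = 0.0279), where 1.73% of all genes were called. Klf10 was 0.80 in the dim and 0.53 in the bright arrays (limma adjusted p = 0.0426 and 0.490). Within the dim preadipose lines, Swiss 2, Swiss 8 and Swiss 9, the Klf3 range fell to 0.27 (limma F adjusted p = 0.306) and that of Klf9 to 0.12 (adjusted p = 0.694). Whether brightness or clone sets the level of Swiss 19 cannot be told apart.

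With all 20 arrays in 1 fit and the line as a random block, which uses the spread between arrays as well, Klf3, Klf10 and Klf13 were called (limma adjusted p = 2.82e-05, 0.000727 and 0.0294), where 11.3% of all genes were. Scaling decided the size: with arrays centred on their medians instead of quantile-normalized, the difference was -1.20 for Klf3, 0.26 for Klf10 and 0.06 for Klf13, and with no normalization -1.33, 0.13 and -0.07, where the median of all genes was -0.19. Relative to that median, Klf13 kept a positive difference. The direction of Klf3 and Klf10 was the same in every setting run, leave-outs included.

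**Figure D4:**
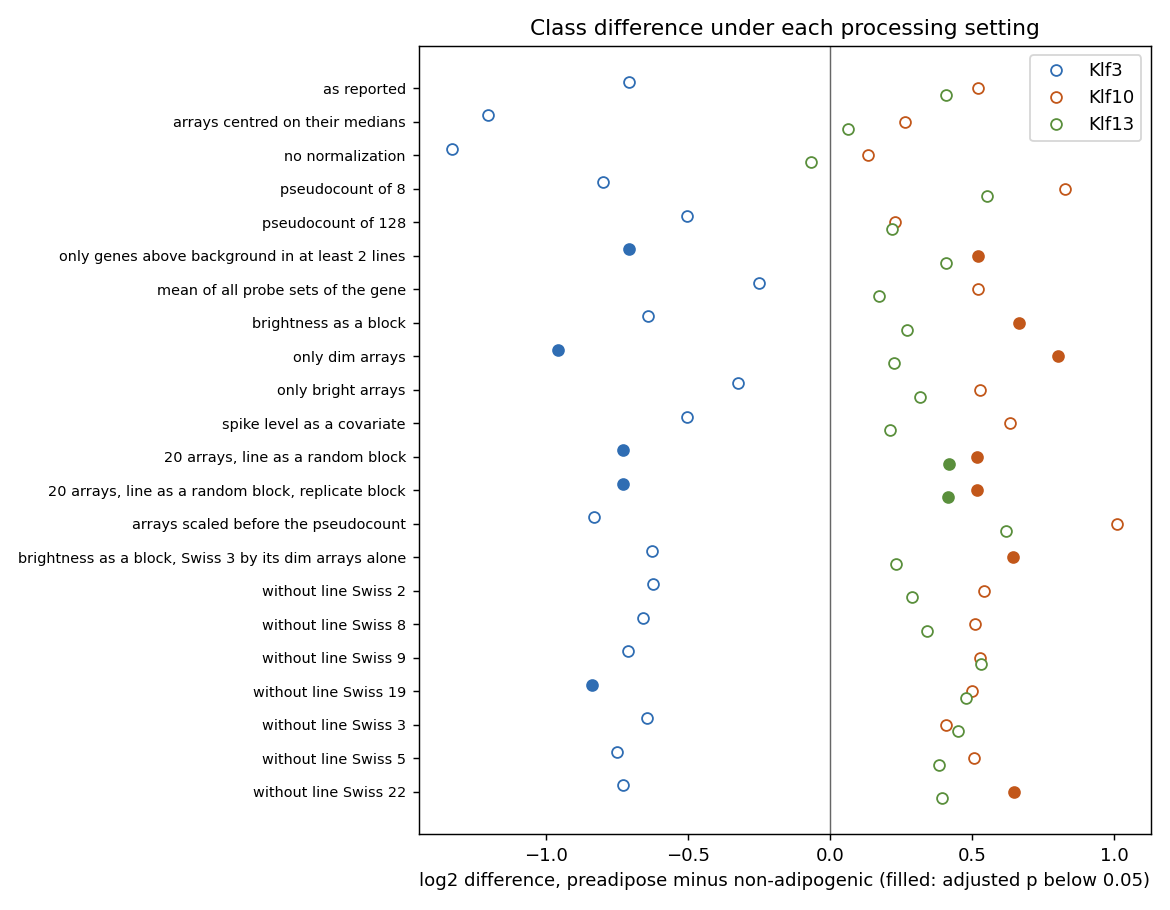
Log2 difference, preadipose minus non-adipogenic, of Klf3, Klf10 and Klf13 under each setting of the class comparison, filled where limma gave an adjusted p under 0.05 and open elsewhere. Klf3 runs from -1.33 to -0.25 and Klf10 from 0.13 to 1.01, on 1 side of 0 throughout, and Klf13 crosses 0 only without normalization (-0.07).

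Other genes of the same network were read from lists, whose counts stand beside 15.6% of all genes at an unadjusted limma p under 0.05 and 13.9% with line means that do not overlap. Of 13 measured other Klf and Sp genes, 0 passed limma, 0 had an unadjusted p under 0.05 and 0 had line means without overlap, with a median log2 difference of 0.03. Of 11 corepressors and coactivators, 0 passed limma and 3 had an unadjusted p under 0.05, with a median log2 difference of -0.13. Ctbp2, a CtBP corepressor that Klf3 recruits, read 1442 ± 159 in preadipose and 980 ± 186 in non-adipogenic lines (SD, n = 4 and 3; log2 difference 0.40, limma adjusted p = 0.0939), the opposite direction to Klf3. Hdac3, a histone deacetylase, read 2325 ± 164 and 2676 ± 157 (log2 difference -0.16, limma adjusted p = 0.278).

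Of the 9 adipogenic genes on which Klf factors are known to act, 0 passed limma, 4 had an unadjusted p under 0.05 and the median log2 difference was 0.15. The 2 without overlap of line means were lower in the preadipose class. Srebf1, a lipid synthesis regulator, read 1136 ± 108 and 1413 ± 59.4 (SD, n = 4 and 3; log2 difference -0.21, limma adjusted p = 0.171). Slc2a4, the target of Klf15, read 180 ± 77.7 and 273 ± 27.4 (log2 difference -0.22, limma adjusted p = 0.235). The targets of Klf3 and Klf5, Cebpa and Pparg, had differences of 0.15 and 0.36 (limma adjusted p = 0.776 and 0.264), with overlapping line means. Those of Klf4 and Klf6, Cebpb and Dlk1, had differences of 0.27 and 0.38 (limma adjusted p = 0.268 and 0.625), also with overlap. The unadjusted limma p was under 0.05 for Cebpb and Pparg (0.0334 and 0.0325).

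Genes known to respond to the members elsewhere went in different directions. Of 6 measured genes of the endothelial Klf2 and Klf4 response, 3 had an unadjusted limma p under 0.05. Line means did not overlap for 1 gene that was higher in preadipose lines and 3 that were lower. Thbd, a thrombin receptor, passed limma with a higher level in preadipose lines, at least 18.0-fold (log2 difference 1.85, SE 0.32, adjusted p = 0.0421). Vcam1, an adhesion molecule, passed with a 2.33-fold lower level (log2 difference -1.18, SE 0.16, limma adjusted p = 0.0214). Nos3 and S1pr1 were the other lower genes without overlap, both at -0.15 (limma adjusted p = 0.263 and 0.378). Of 3 measured genes known to be repressed by Klf3, Lgals3, which encodes galectin-3, was higher in preadipose lines, by at least 50.9-fold (log2 difference 3.12, SE 0.35, limma adjusted p = 0.0120). These bounds set non-adipogenic lines that were not above background to background, which was 1 of 3 lines for Thbd and all 3 for Lgals3. The others repressed by Klf3, C1qtnf12 and Cebpa, had differences of 0.22 and 0.15 (limma adjusted p = 0.301 and 0.776). This list was chosen with earlier results of these data known, and a link of its genes to Klf3 was not tested. Of 10 genes known to respond to Klf5, Klf6 or Klf10, 0 passed limma and 1, Tgfbr1, had an unadjusted p under 0.05. Tgfbr1, a TGF-beta receptor, had line means without overlap at 1151 ± 263 and 738 ± 70.9 (SD, n = 4 and 3; log2 difference 0.41, limma adjusted p = 0.130). None of 17 serum-induced early genes, 9 glucocorticoid-induced genes and 6 genes of the MEK5, ERK5 and MEF2 route upstream of Klf2 and Klf4 passed limma, with 2, 1 and 1 at an unadjusted p under 0.05, and none had line means without overlap.

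Genes with a range of at least 1 on the log2 scale, 923 or 924 of them, were searched for those most like Klf3, Klf4 and Klf5. Likeness was the Pearson correlation over 7 line means of the representative probe sets. These points share arrays and brightness, and the correlations are a description. For Klf3 the closest were Parva (0.992), Slf2 (0.988) and Rbms3 (0.986). Parva, an adaptor of cell adhesion, read 2265, 2722, 2795 and 3624 in the preadipose lines in the order 2, 8, 9 and 19 and 5240, 4837 and 4830 in Swiss 3, Swiss 5 and Swiss 22, so Swiss 19 was the highest preadipose line for it as for Klf3. For Klf4 they were Sertad4 (0.877), Pcdh7 (0.872) and Nrk (0.860), and for Klf5 Nqo1 (0.824), Prkg2 (0.809) and Ptgs2 (0.740). Prkg2, a cGMP-dependent kinase, read 1367, 2553, 9877 and 2882 in the preadipose lines in that order and 938, 4223 and 885 in the non-adipogenic ones, so that like Klf5 it was highest in Swiss 9 and next in Swiss 5.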

How the data were processed

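Values were the deposited linear intensities of probe sets, made by the authors from 3' expression arrays. Per the labels' protocols, RNA was extracted with Trizol and RNeasy columns and amplified from an oligo-dT primer with biotin. How the deposited intensity values were summarized and scaled, and with which software, is not given in the sources used here. Groups came from the sample titles. The deposited table was converted to log2 values as log2(intensity + 32), without its 64 control probe sets, and quantile-normalized. Each gene was read by its probe set with the highest mean among those with 1 symbol, and arrays were averaged to 7 line means. The class difference of these means was tested with limma 3.58.1 (R 4.3.3; lmFit, then eBayes). P-values were adjusted by Benjamini-Hochberg across all genes, or across all probe sets where probe sets are counted, with a threshold of 0.05. Lines of a class were compared with limma's moderated F test on 20 arrays. The script was tested on simulated data. A fold is the ratio of the classes' mean scaled intensities over lines. Dim genes were kept. The number of clones, not a read depth, limits the precision of the class comparison, and the number of arrays that of the tests among lines.

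The members and all gene lists were chosen with earlier results of these data known. From each list, called members were named (up to 4 by adjusted p), or else up to 2 without overlap of line means. For the 3 members with the widest range of line means, the 3 most correlated genes were named. Cebpa, Cebpb, Pparg, Dlk1, Nos3, S1pr1 and C1qtnf12 were named outside this rule, after their values were seen. Alternatives covered normalization, pseudocount, a background filter, all probe sets of a gene, brightness, a random block, a replicate block, and leaving out lines and arrays.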

Additional observations from a re-analysis of the deposited data

Results flagged for a closer look

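In 1 gene a line stood apart from the others of its class. Klf6 in Swiss 8, at a mean scaled intensity of 1115, was separated from the next preadipose line by 0.883 of the range of the 4 line means on the normalized log2 scale, above the critical value of Dixon's test for 4 values. Swiss 2, Swiss 9 and Swiss 19 read 865, 873 and 927 in scaled intensity. About 1 in 20 groups passes this limit by chance. The Swiss 8 arrays read 1035, 948 and 1361, so 1 array carried much of the distance. In 3 of the 4 other Klf6 probe sets, 1418280_at, 1427742_a_at and 1459718_x_at, the highest preadipose line was Swiss 2, at 1050, 919 and 171, where Swiss 8 read 940, 810 and 113. In 1447448_s_at it was Swiss 8, at 508.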

How the results depend on the processing

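Klf3 and Klf10 kept their direction in every setting, and the calls depended on the settings named here. The cause of these changes was not tested, other than that fewer genes, arrays or lines enter some settings. Of genes called between the classes there were 7 with arrays centred on their medians, 2 without normalization, 445 with genes above background in at least 2 lines, 0 in the bright arrays, 124 with the spike level as a covariate and 100 with arrays scaled before the pseudocount. Leaving out a line or an array gave 55 to 470 genes and 0 to 1 members. Members called were 2 with the background filter, 2 in the dim arrays, 1 with brightness as a block and 1 when Swiss 3 entered that block by its dim arrays alone. With the line as a random block, 2061 genes and 3 members were called, and with the replicate block added, 1957 genes and 3 members. Replicate numbers did not pair the samples (deviations of same-numbered arrays correlated at -0.058 to 0.079). Probe sets called were 3 with median centring and 2 without normalization.

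Among the preadipose lines 12490 genes were called with median centring, 12732 without normalization and 1569 in the dim arrays. Among the non-adipogenic lines 10751 and 11527 genes, and 9 and 9 members, were called in the first pair of settings, and 2 members in the bright arrays. Settings added after the data were seen were scaling before the pseudocount, the block with Swiss 3 by its dim arrays, and the tests among lines in dim or bright arrays alone.

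Small differences changed sign. Klf5 was 0.0024 with the larger pseudocount, 0.022 as the mean of its probe sets, 0.040 in dim arrays, 0.0027 with the random block and 0.0036 with the replicate block, and ran from -0.20 to 0.13 over leave-outs. Klf6 was 0.020 as the mean of its probe sets and 0.046 in dim arrays, and -0.069 to 0.0057 over leave-outs. Klf7 was -0.17 with median centring, -0.30 without normalization, -0.015 as the mean of its probe sets and -0.073 in dim arrays. Klf9 was 0.060 in bright arrays, Klf15 0.029 there and 0.056 with median centring, and Klf13 -0.066 without normalization. With median centring and without normalization, Ctbp2 was -0.00059 and -0.13, 1451739_at (Klf5) -0.055 and -0.18, 1418280_at (Klf6) -0.34 and -0.47, 1427742_a_at (Klf6) -0.23 and -0.36, 1459718_x_at (Klf6) -0.0088 and -0.14, 1419356_at (Klf7) -0.18 and -0.31, and 1456341_a_at (Klf9) -0.21 and -0.34. Without normalization, Tgfbr1 was -0.029, 1430255_at (Klf5) -0.012, 1436952_at (Klf9) -0.098, 1432543_a_at (Klf13) -0.039 and 1456030_at (Klf13) -0.050, and 1436763_a_at (Klf9) was 0.051 with median centring. Levels of Klf15, near background, limit any comparison of it.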
